A study of Homo sapiens with 6 samples.

Results

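Expression of the WNT ligands, their Frizzled receptors and co-receptors, the secreted antagonists and the core of the beta-catenin pathway was examined in 143B osteosarcoma cells with or without CNTNAP4. The genes were chosen by symbol: every WNT, FZD, SFRP and DKK family member with a row in the deposited table, together with 19 named genes (LRP5, LRP6, ROR1, ROR2, AXIN1, AXIN2, APC, CTNNB1, GSK3A, GSK3B, LEF1, TCF7, TCF7L1, TCF7L2, LGR4, LGR5, RNF43, ZNRF3 and WIF1). This gave 56 of the 54308 genes listed, made up of 19 ligands, 10 Frizzled receptors, 4 co-receptors, 9 secreted antagonists, 4 R-spondin receptors and ubiquitin ligases, 5 destruction complex genes and 5 genes of beta-catenin and the TCF/LEF factors. 143B is an established human osteosarcoma cell line. Control cells (VC) were transfected with the vector plasmid and knockout cells (KO) with a CRISPR/Cas9 plasmid against CNTNAP4, a neurexin-family surface receptor, and all cells were grown in the same serum-containing medium. The labels give 48 h of transfection for both groups, whereas the methods describe a longer incubation, sorting of RFP-positive single cells and RNA from clonal cells, so each group represents few clones, and which clone each library came from is not given in the sources used here. RNA-seq was performed on 3 libraries of each group, and p-values therefore measure only the spread between these RNA samples.

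WNT proteins are lipid-modified secreted ligands that bind Frizzled receptors. With the co-receptors LRP5 and LRP6 this binding inhibits the destruction complex of AXIN, APC and GSK3, so that beta-catenin accumulates and activates transcription with TCF/LEF factors, whereas WNT5A-type ligands mainly act through ROR receptors and planar polarity proteins without beta-catenin. In bone, WNT signalling promotes osteoblast formation, and the antagonists of the DKK and SFRP families limit it.

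All values are log2 signals that had been quantile-normalized between the 6 libraries. A gene without a value in a library is an empty cell, and the read depth under the values is unknown. CNTNAP4 had a log2 signal of -7.18 in VC replicate 3 and no value in the other 5 libraries, so the loss of the targeted gene could not be checked in these RNA signals. Of 8 markers of mesenchymal and bone-forming cells, 7 had values in all 6 libraries, COL1A1, SPARC and ALPL were called higher in KO, TWIST1 and COL1A2 were called lower, and VIM and RUNX2 were not called. The osteoblast factor SP7 had values in 4 libraries only, none above -6.52. Of the 3 myogenic markers, MYOD1 and MYOG had no value in any library, and DES had 1 value in VC and 3 in KO, and none of the 4 endothelial markers was called. CD68, a macrophage-lineage marker found in other cells too, was called higher in KO, the epithelial marker EPCAM was called lower, and KRT14 had no value in any library. The summed linear signal of the mesenchymal list was 1390 to 1570 in VC and 1680 to 2090 in KO. Most of this sum was VIM alone, which was not called (mean log2 signal 10.44 in VC and 10.82 in KO). The next highest gene was SPARC (6.50 and 6.87), so the sum does not describe the whole list. The sum of the endothelial list was 0.0342 to 0.076 and 0.0682 to 0.112, and that of the myogenic list 0 to 0.00774 and 0.00756 to 0.0156. The summed linear signal of the leukocyte list, mostly CD68, was 21.6 to 23 in VC and 52.3 to 88.1 in KO. That of the epithelial list, mostly EPCAM, was 3.09 to 3.49 in VC and 1.79 to 2.24 in KO. The part of these shifts in the results was not tested. Over the 43 WNT pathway genes with 6 values, the mean deviation from each gene's own mean was 0.28, 0.03 and 0.28 in the VC libraries and -0.02, -0.27 and -0.30 in the KO libraries, each in the order of replicates 1, 2 and 3.

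The sequences before the RefSeq starts are shown for WNT7A, WNT5A and WNT5B, the 3 ligands with the largest differences among those with 6 values and an adjusted p under 0.05, and for DKK1, whose window held the TCF/LEF core. Each is the 250 bases before the most upstream start of the RefSeq table (GRCh38.p14), printed 5′ to 3′ on the gene's strand. Capitals mark CG dinucleotides in the WNT sequences and the core CTTTGA or its reverse complement TCAAAG in DKK1.
WNT7A (chr3:13880072-13880321, minus strand): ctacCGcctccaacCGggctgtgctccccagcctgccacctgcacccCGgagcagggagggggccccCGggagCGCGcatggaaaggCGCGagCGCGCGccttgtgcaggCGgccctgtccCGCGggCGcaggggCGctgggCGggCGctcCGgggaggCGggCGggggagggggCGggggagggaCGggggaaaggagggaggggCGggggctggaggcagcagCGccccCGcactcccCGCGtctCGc
WNT5A (chr3:55487307-55487556, minus strand): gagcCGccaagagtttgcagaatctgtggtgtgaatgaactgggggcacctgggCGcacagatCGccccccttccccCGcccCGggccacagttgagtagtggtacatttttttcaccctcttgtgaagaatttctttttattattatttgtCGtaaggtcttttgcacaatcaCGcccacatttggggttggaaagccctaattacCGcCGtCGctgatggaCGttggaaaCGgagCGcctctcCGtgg
WNT5B (chr12:1616806-1617055, plus strand): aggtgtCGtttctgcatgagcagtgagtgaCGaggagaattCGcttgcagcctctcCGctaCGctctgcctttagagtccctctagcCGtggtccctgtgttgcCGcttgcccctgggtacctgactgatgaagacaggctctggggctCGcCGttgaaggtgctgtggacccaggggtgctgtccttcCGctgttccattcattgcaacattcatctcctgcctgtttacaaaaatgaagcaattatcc
DKK1 (chr10:52314031-52314280, plus strand): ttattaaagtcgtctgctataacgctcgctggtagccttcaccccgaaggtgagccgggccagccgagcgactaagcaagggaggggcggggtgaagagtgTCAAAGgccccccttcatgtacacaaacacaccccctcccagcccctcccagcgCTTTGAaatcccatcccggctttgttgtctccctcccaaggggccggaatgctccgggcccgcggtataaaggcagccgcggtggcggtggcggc

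The WNT7A sequence held 29 CG dinucleotides and 80.4% G or C bases, against 14 and 52.8% for WNT5A, 10 and 54.8% for WNT5B, and a median of 11 and 58% over the 35116 windows of the table. WNT5A and WNT5B each have 2 RefSeq starts, of which 1 is shown. The core CTTTGA was searched on both strands in windows of 300 bases, which add the first 50 bases after the start, and was present in 12.9% of all windows. Among 48 windows of 40 of the WNT pathway genes, DKK1 alone held it, with copies that begin 149 and 95 bases before the start. A match or its absence describes these letters in this window only.

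Of the 56 genes, 46 had at least 2 values in each group and were tested, and 10 were not. WNT1, WNT3A, WNT8A, FZD10, SFRP2 and DKK4 had no value in any library. WNT2 had 1 value, -7.87 in VC replicate 3, and WNT9B had -8.54 in VC replicate 1 and -8.65 in KO replicate 1. The antagonist WIF1 had -6.75 and -5.81 in VC replicates 1 and 3 and no value in KO. SFRP5 had a value in KO replicate 1 alone (-6.77), but -4.10, -6.62 and -6.77 in VC. These 4 genes thus lay near the lower end of the signals, which ran from -10.87 to 12.04.

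At an adjusted p under 0.05 with limma's moderated test, adjusted over all 19306 tested genes, 16 of the 46 genes differed, 13 lower and 3 higher in KO. This was 34.8% of the genes, beside 32.9% of all tested genes. For lower genes the share was 28.3% beside 19.8% of all genes, and for higher genes 6.52% beside 13.1%. With at least a 2-fold change, 7 were lower, beside 5.43% of all tested genes, and 1 was higher, beside 4.1%. The median log2 fold change of the 46 genes was -0.40, beside -0.13 for all tested genes, and 38 of the 46 had a lower mean in KO. In the upper 50% of mean signal the median of the 22 genes present was -0.13, beside -0.09 for all genes at that level, and in the lower 50% the median of 24 was -0.56, beside -0.20. Of the 43 genes with 6 values, 18 had all KO values under all VC values and 4 had them above, where 36.7% and 22.6% of all genes did. The number called fell to 5 without VC replicate 1, 10 without VC replicate 2, 5 without VC replicate 3 and 7 without KO replicate 3. It was 22 without KO replicate 1 and 11 without KO replicate 2. All genes called went from 6354 to 1403, 2450 and 1223 without VC replicates 1, 2 and 3. Without KO replicates 1, 2 and 3 all genes called numbered 8669, 4393 and 2018. WNT5A, WNT5B, WNT7A and WNT7B were called with each of the 6 libraries left out.

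**Figure D1:**
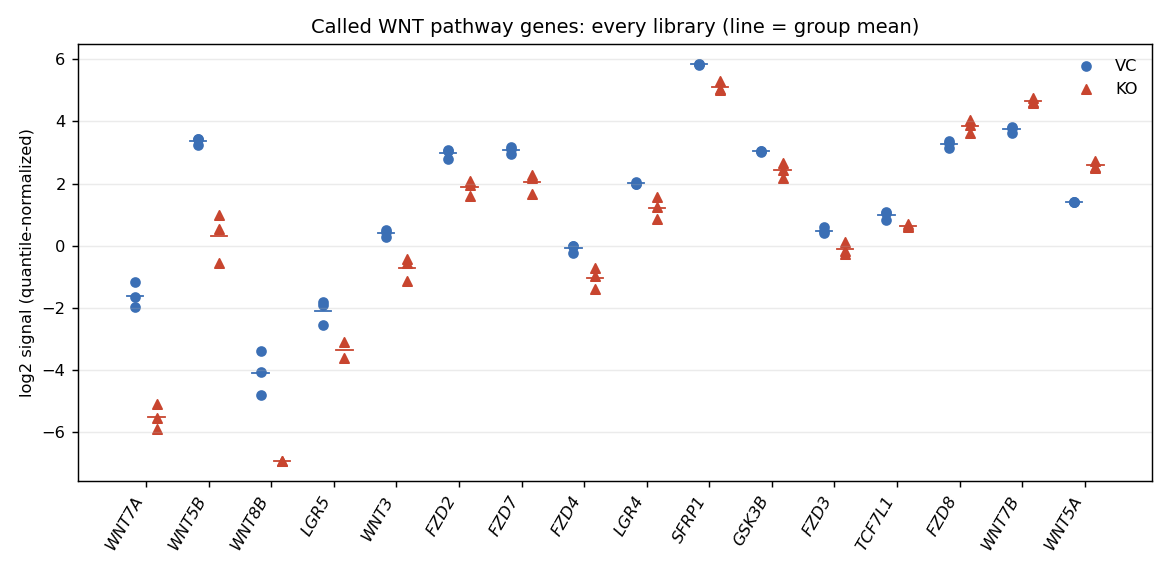
Log2 signal (y axis) of the 16 called genes (x axis, ordered by log2 fold change) in each VC library (blue circles) and KO library (red triangles), with lines for group means. WNT7A, WNT5B and WNT8B show the widest gaps, KO values lie above VC values for FZD8, WNT7B and WNT5A, and no gene has overlapping groups.

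Among the ligands, 6 of the 14 tested were called, 4 lower and 2 higher in KO (28.6% and 14.3%, beside 19.8% and 13.1% of all tested genes). The loss was largest for WNT7A, a ligand known in limb patterning and cartilage, and WNT5B, a regulator of chondrocyte differentiation. The gains were those of WNT5A, the prototype of beta-catenin-independent ligands, and WNT7B, which promotes bone formation. WNT7A and WNT7B, and likewise WNT5A and WNT5B, are pairs of closely related proteins, and the genes of each pair moved in opposite directions. In RNA from whole cultures, fewer expressing cells and less RNA per cell cannot be told apart.

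WNT7A (chr3:13816258-13880121, minus strand, GENCODE release 29, GRCh38) had log2 signals of -1.65, -1.97 and -1.18 in VC and -5.09, -5.89 and -5.54 in KO, each given for replicates 1, 2 and 3, the order used throughout. The lowest VC value was thus more than 3 log2 units above the highest KO value. Its log2 fold change of -3.91 (95% interval -4.64 to -3.18, limma adjusted p = 0.00573) corresponds to a 15-fold lower signal. After adding 1 to each linear signal, which compresses low values, the log2 fold change was -0.39 and the gene was still called (limma adjusted p = 0.0073). Its partner WNT7B (chr22:45920362-45977129, minus strand) had 3.82, 3.64 and 3.78 in VC and 4.74, 4.59 and 4.61 in KO, all KO values above all VC values. The log2 fold change was 0.90 (standard error 0.087, limma adjusted p = 0.00789), a 1.86-fold rise. WNT7B lies on chromosome 22, whose genes in the upper 50% of mean signal had a median log2 fold change of 0.32, and the 20 nearest such genes had a median of 0.17. The part of this regional shift in the result was not tested.

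WNT5B (chr12:1529891-1647243, plus strand) had 3.44, 3.25 and 3.42 in VC and 0.98, -0.55 and 0.53 in KO. The groups lay far apart, with KO replicate 2 the lowest library. The log2 fold change was -3.05 (95% interval -4.06 to -2.05, limma adjusted p = 0.0104), an 8.29-fold lower signal. Leaving out that library gave a log2 fold change of -2.62, the smallest decrease of the 6 such fits. WNT5A (chr3:55465715-55490539, minus strand) had 1.40, 1.42 and 1.41 in VC and 2.49, 2.73 and 2.54 in KO. The VC values were almost identical, and each KO value was more than 1 log2 unit higher. Its log2 fold change was 1.17 (standard error 0.086, limma adjusted p = 0.00571), a 2.26-fold rise, and the 20 nearest genes in the upper 50% of signal had a median of -0.24.

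The opposite movements were read within each library as the difference between the log2 signals of a pair. The log2 signal of WNT5A minus that of WNT5B was -2.04, -1.83 and -2.01 in VC and 1.51, 3.27 and 2.01 in KO, a change of 4.23. For WNT7B minus WNT7A the difference was 5.47, 5.61 and 4.96 in VC and 9.83, 10.48 and 10.15 in KO, a change of 4.81. In both pairs the 3 KO values lay above the 3 VC values. The pairs were singled out after their values had been seen, so these differences are a description without a test.

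**Figure D2:**
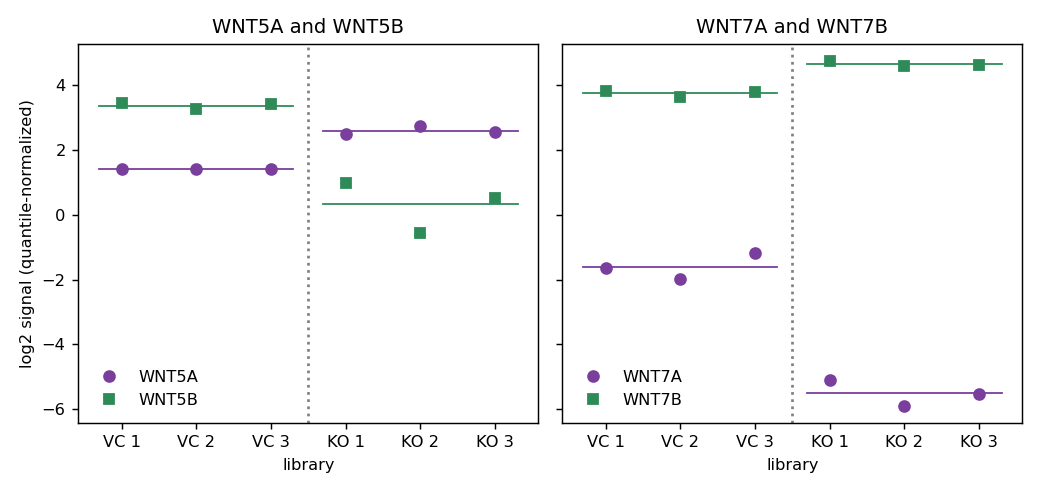
Log2 signal (y axis) of WNT5A and WNT5B (left) and of WNT7A and WNT7B (right) in each library (x axis), with lines at group means. WNT5A rises and WNT5B falls from VC to KO, and WNT7B rises while WNT7A falls from a mean of -1.60 to -5.51.

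WNT3, a ligand of the beta-catenin branch, had 0.52, 0.45 and 0.29 in VC and -0.42, -1.13 and -0.55 in KO. All KO values were lower, with a log2 fold change of -1.12 (standard error 0.21, limma adjusted p = 0.0182). The 20 nearest genes had a median of -0.31. WNT8B, a ligand known from the developing forebrain, had -4.07, -4.80 and -3.38 in VC, no value in KO replicate 1 and -6.92 in both KO replicates 2 and 3. The fit used these 5 values (log2 fold change -2.84, limma adjusted p = 0.018). After adding 1 to each linear signal the WNT8B difference was -0.08 (limma adjusted p = 0.14). The limma adjusted p of WNT3 was 0.0642, 0.0587, 0.0578 and 0.0514 without VC replicates 1, 2 and 3 and KO replicate 3, and that of WNT8B was 0.0633 without VC replicate 1. With KO replicate 2 or 3 left out, too few values remained for WNT8B.

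The other 8 tested ligands were not called. WNT10A, which acts in tooth and skin development, had -2.20, -4.27 and -3.22 in VC and -1.88, -1.48 and -2.09 in KO, so the groups did not overlap, but the VC values spread over 2 log2 units (log2 fold change 1.41, limma adjusted p = 0.0966). WNT11, a ligand of the planar polarity branch, had -3.67, -4.75 and -3.44 in VC and -4.90, -4.23 and -4.39 in KO. Its groups overlapped (log2 fold change -0.55, 95% interval -1.54 to 0.44), and its exons share 204 bases with an antisense gene. WNT4 had -6.85, -6.04 and -8.49 in VC and -5.69, -5.05 and -7.46 in KO, with a spread as large as the difference between its means. Its log2 fold change was 1.06 (limma adjusted p = 0.386), and it was called with a replicate block (limma adjusted p = 0.0479). After adding 1 to each linear signal the WNT4 difference was 0.01 (limma adjusted p = 0.655). WNT16 had values in 2 libraries of each group, -6.46 and -5.41 in VC and -7.49 and -6.53 in KO. WNT6, WNT10B, WNT2B and WNT9A had log2 fold changes from -0.76 to 0.45, with adjusted p from 0.0914 for WNT10B to 0.642 for WNT2B (limma). WNT10B was called without KO replicate 1 (limma adjusted p = 0.0223).

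Of the 10 Frizzled receptors, which bind WNT ligands at the cell surface, 9 were tested and 5 were called, 4 lower and 1 higher in KO (44.4% and 11.1%, beside 19.8% and 13.1% of all tested genes). FZD2 had 3.04, 2.79 and 3.08 in VC and 2.08, 1.61 and 1.94 in KO. FZD7, closely related to FZD2, had 3.10, 2.94 and 3.19 in VC and 2.29, 1.68 and 2.17 in KO. For both receptors every KO value lay below every VC value, and KO replicate 2 was lowest. The log2 fold change was -1.09 for FZD2 (standard error 0.15, limma adjusted p = 0.0117) and -1.03 for FZD7 (standard error 0.18, limma adjusted p = 0.0169). FZD4, a receptor for Norrin as well as WNTs, had -0.01, -0.22 and -0.01 in VC and -0.70, -1.40 and -0.97 in KO. All KO values were lower (log2 fold change -0.94, limma adjusted p = 0.0231). The exons of FZD4 share 1399 bases with PRSS23 on the opposite strand, and although the labels name a stranded mRNA kit (the methods name total RNA sequencing), whether the counting used strand is not given in the sources used here. The same limit holds for WNT2B (2661 shared bases), TCF7L2 (300), LEF1 (279), DKK1 (212), TCF7 (210), WNT2 (170), FZD6 (138) and WNT4 (55).

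FZD3, a receptor in axon guidance and planar polarity, had 0.47, 0.61 and 0.40 in VC and 0.12, -0.27 and -0.17 in KO. Its groups did not overlap (log2 fold change -0.60, limma adjusted p = 0.0256), and it lies on chromosome 8, whose median was -0.29, while its 20 nearest genes had a median of 0.06. FZD8, a receptor of the beta-catenin branch, had 3.36, 3.15 and 3.30 in VC and 3.63, 4.05 and 3.88 in KO. It was higher in every KO library, with a log2 fold change of 0.58 (limma adjusted p = 0.0289). FZD6, FZD1, FZD5 and FZD9 had overlapping groups. FZD6 differed least of these, with a 95% interval of the log2 fold change of -0.29 to 0.30, while that of FZD9 ran from -2.86 to 1.37. FZD5 was called without KO replicate 1 (limma adjusted p = 0.0262). Without VC replicate 3 none of the 5 receptors was called (limma adjusted p = 0.05 for FZD2 and up to 0.0838 for FZD8). Without VC replicate 1 the calls of FZD3, FZD4, FZD7 and FZD8 were lost (limma adjusted p 0.061 to 0.0775), without VC replicate 2 or KO replicate 3 those of FZD3, FZD4 and FZD8 (0.057 to 0.0828) and without KO replicate 2 those of FZD3 and FZD8 (0.0515 and 0.053).

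The 4 co-receptors were not called at an adjusted p under 0.05, and 1 had an unadjusted p under 0.05. LRP5 had 4.67, 4.43 and 4.63 in VC and 4.60, 4.41 and 4.60 in KO, and LRP6 had 3.15, 3.19 and 3.11 in VC and 3.21, 3.00 and 3.11 in KO. The groups overlapped for both, and the 95% intervals of the log2 fold change were -0.30 to 0.22 for LRP5 and -0.25 to 0.16 for LRP6. ROR2, a receptor tyrosine kinase for WNT5A, had 0.94, 0.66 and 0.92 in VC and 0.52, -0.07 and 0.40 in KO. All its KO values were lower, but it did not pass (log2 fold change -0.56, limma adjusted p = 0.0662). ROR2 was called without KO replicate 1 (limma adjusted p = 0.0415), with trend and robust moderation (0.0356) and after adding 1 to each linear signal (0.048). ROR1 had overlapping groups and a log2 fold change of -0.25 (95% interval -0.74 to 0.24).

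**Figure D3:**
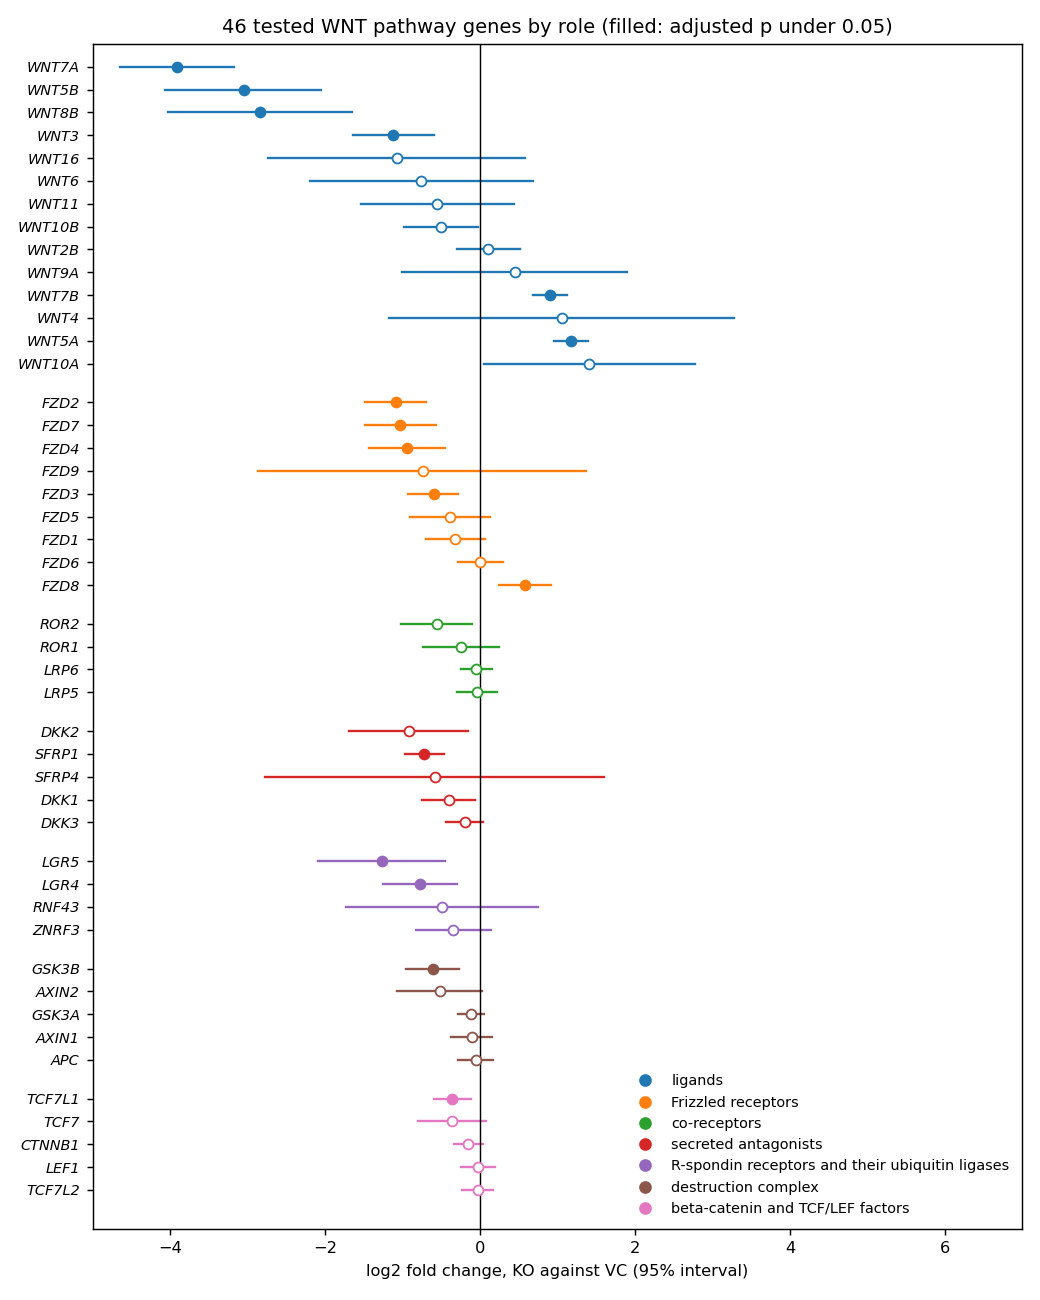
Log2 fold change of KO against VC (x axis) with its 95% interval for the 46 tested genes (y axis), grouped and coloured by role, with filled points at an adjusted p under 0.05. Ligands lie on both sides of 0, while 7 of 9 Frizzled receptors and all genes of the other 5 roles lie below it.

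The secreted antagonists had lower means in KO for all 5 tested genes, beside 11540 of all 19306 tested genes. Of the 5, 1 was called (20%, beside 19.8% of all tested genes called lower). All KO values lay under all VC values in 4 of the 5, beside 36.7% of all genes with 6 values. SFRP1, which binds WNT ligands and Frizzled receptors, had 5.85, 5.82 and 5.85 in VC and 5.31, 5.00 and 5.05 in KO. Every KO value was lower, and the log2 fold change was -0.72 (standard error 0.10, limma adjusted p = 0.0118). SFRP1 lies on chromosome 8, whose median was -0.29, and its 20 nearest genes had a median of -0.04. Without VC replicate 1 or 3 its limma adjusted p was 0.0501 and 0.0517. DKK1, an LRP5 and LRP6 blocker induced by beta-catenin, whose 2 copies of the TCF/LEF core are printed above, had 5.29, 5.36 and 5.31 in VC and 5.14, 4.95 and 4.66 in KO. The KO values were all below those of VC without passing the test (log2 fold change -0.40, limma adjusted p = 0.0717). DKK1 was called without KO replicate 1 (limma adjusted p = 0.0224), with trend and robust moderation (0.0268) and among genes in the upper 50% of mean signal (0.0233). DKK2 had -1.80, -2.23 and -1.72 in VC and -2.27, -2.90 and -3.34 in KO, also without overlap (log2 fold change -0.92, limma adjusted p = 0.0693), and was called without KO replicate 1 (limma adjusted p = 0.0177). DKK3 had a log2 fold change of -0.20 without overlap (limma adjusted p = 0.156), and SFRP4, near the lower end of the signals, had overlapping groups.

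LGR4 and LGR5 are receptors for R-spondins, which strengthen WNT signalling by removing the ubiquitin ligases RNF43 and ZNRF3 from the cell surface. LGR4 had 2.05, 1.98 and 2.0 in VC and 1.57, 0.86 and 1.26 in KO. All KO values were lower (log2 fold change -0.78, limma adjusted p = 0.0326). LGR5, a stem cell marker and beta-catenin target, had -1.80, -2.55 and -1.90 in VC, -3.09 and -3.61 in KO replicates 1 and 3 and no value in KO replicate 2. The log2 fold change from these 5 values was -1.27 (limma adjusted p = 0.0412), and after adding 1 to each linear signal it came to -0.17 (limma adjusted p = 0.0603). Its exons share 208 bases with an antisense gene. ZNRF3 had 2.0, 1.83 and 2.04 in VC and 1.86, 1.21 and 1.77 in KO, and RNF43 had -6.34, -7.02 and -5.74 in VC and -6.43, -6.43 and -7.72 in KO. Both ligases had overlapping groups, with log2 fold changes of -0.35 and -0.49 (limma adjusted p = 0.211 and 0.468), and the exons of RNF43 share 1521 bases with TSPOAP1-AS1. LGR4 was not called without VC replicates 1, 2 and 3 or KO replicate 3 (limma adjusted p = 0.094, 0.0821, 0.0914 and 0.0845), and LGR5 was not called without VC replicates 1 and 3 or KO replicate 2 (0.105, 0.112 and 0.0502) and had too few values with KO replicate 1 or 3 left out.

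In the destruction complex, which marks beta-catenin for degradation, GSK3B was the called gene of 5 (20%, beside 19.8% of all tested genes called lower). This kinase had 3.05, 3.06 and 3.01 in VC and 2.67, 2.19 and 2.45 in KO, a log2 fold change of -0.61 (limma adjusted p = 0.0271). Its paralogue GSK3A had 4.49, 4.38 and 4.43 in VC and 4.33, 4.29 and 4.32 in KO, lower in every KO library by a small amount (log2 fold change -0.12, 95% interval -0.29 to 0.05, limma adjusted p = 0.217, and 0.048 after adding 1 to each linear signal). AXIN2, a scaffold of the complex that is itself a widely used readout of beta-catenin transcription, had -0.41, -0.76 and -0.46 in VC and -0.68, -1.44 and -1.06 in KO. The value of KO replicate 1 lay above that of VC replicate 2, and the difference did not pass (log2 fold change -0.52, limma adjusted p = 0.121). Without KO replicate 1 AXIN2 was called (limma adjusted p = 0.033). AXIN1 and the tumour suppressor APC had overlapping groups, with 95% intervals of the log2 fold change of -0.38 to 0.15 and -0.28 to 0.17. GSK3B was not called without VC replicates 1, 2 and 3 or KO replicate 3 (limma adjusted p = 0.0838, 0.0755, 0.0801 and 0.076).

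CTNNB1, which encodes beta-catenin, had 6.55, 6.56 and 6.53 in VC and 6.48, 6.31 and 6.40 in KO. Its groups did not overlap, but the log2 fold change was small (-0.15, 95% interval -0.33 to 0.04, limma adjusted p = 0.167). TCF7L1, which mainly represses WNT targets, had 1.07, 0.84 and 1.08 in VC and 0.69, 0.65 and 0.59 in KO. It was the called gene of this group of 5 (log2 fold change -0.36, limma adjusted p = 0.0399). This was 20%, beside 19.8% of all tested genes called lower. With median-centred libraries the log2 fold change of TCF7L1 was -0.27 (limma adjusted p = 0.0616), and it was not called without VC replicates 1 and 3 or KO replicates 2 and 3 (limma adjusted p = 0.123, 0.125, 0.0811 and 0.114). LEF1 had 3.08, 2.97 and 3.12 in VC and 3.13, 2.92 and 3.03 in KO. TCF7 had 0.58, 0.30 and 0.66 in VC and 0.47, -0.04 and 0.04 in KO. Both factors, which are beta-catenin partners and targets, had overlapping groups, with 95% intervals of -0.25 to 0.19 for LEF1 and -0.80 to 0.08 for TCF7. TCF7 was called without KO replicate 1 (limma adjusted p = 0.0366). The interval of TCF7L2 was -0.23 to 0.17.

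**Figure D4:**
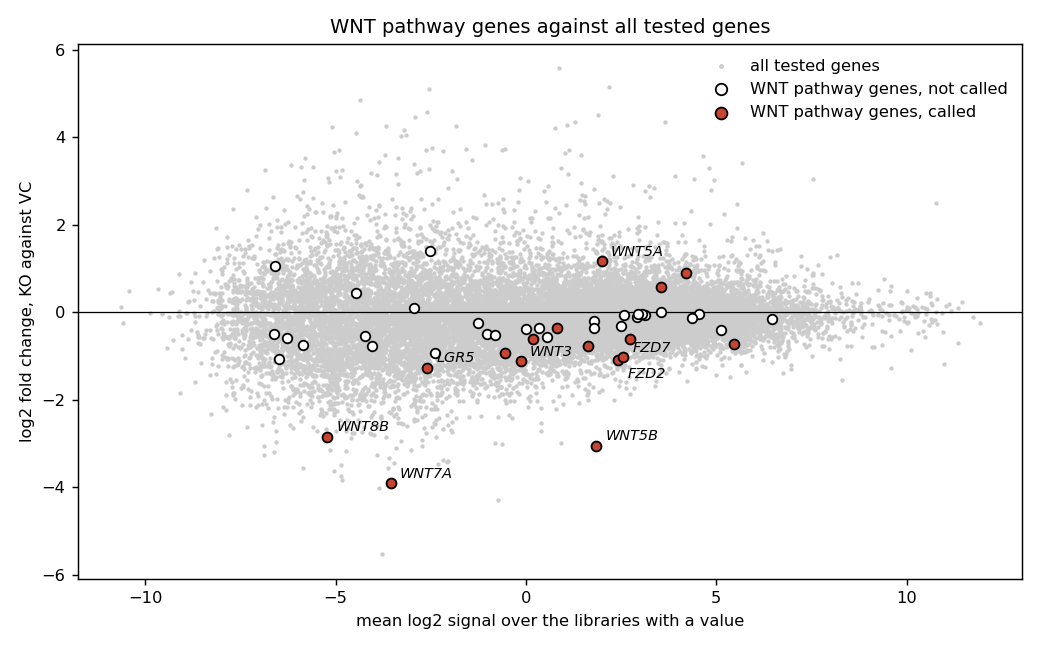
Log2 fold change of KO against VC (y axis) against mean log2 signal (x axis) for all 19306 tested genes (grey) and the 46 WNT pathway genes (white, or red where called). WNT7A at -3.91 and WNT5B at -3.05 lie near the lower edge of the cloud, while most other genes of the group lie within it.

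A further 85 genes of the pathway were listed by function, of which 78 were tested. Of these, 32 were called, 13 higher and 19 lower in KO (16.7% and 24.4%, beside 13.1% and 19.8% of all tested genes), and their median log2 fold change was -0.22. Leaving out VC replicate 1, 2 or 3 gave 12, 14 and 11 called genes. Leaving out KO replicate 1, 2 or 3 gave 43, 21 and 11. In the secretion of ligands, WLS, which carries WNT proteins to the cell surface, had 5.30, 5.33 and 5.27 in VC and 5.89, 6.19 and 6.10 in KO. PORCN, the acyltransferase that attaches their lipid, had 0.36, -0.02 and 0.27 in VC and 0.62, 1.07 and 0.78 in KO. Both were higher in every KO library, with log2 fold changes of 0.76 (limma adjusted p = 0.0105) and 0.62 (limma adjusted p = 0.0382). They were the 2 called of 3 tested genes for ligand secretion and release (66.7% called higher, beside 13.1% of all tested genes). The other gene of this list, NOTUM, was not called (log2 fold change -0.13, limma adjusted p = 0.636). The Dishevelled genes DVL1, DVL2 and DVL3, which relay the signal from Frizzled receptors, were not called, with log2 fold changes of 0.01, 0.07 and -0.11. Of the 9 tested genes for Dishevelled and its regulators, 2 were called, both lower (22.2%, beside 19.8% of all tested genes). The sign of DVL1 was negative without VC replicate 2, KO replicate 2 or KO replicate 3.

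Of the 7 further antagonists tested, 4 were called lower in KO and 1 higher (57.1% and 14.3%, beside 19.8% and 13.1% of all tested genes). Lower means were found for 6 of the 7, beside 11540 of all 19306 tested genes. FRZB, a relative of the SFRP proteins, had -3.83, -3.46 and -3.46 in VC, no value in KO replicate 1 and -7.21 in both KO replicates 2 and 3 (log2 fold change -3.62, limma adjusted p = 0.00478). SHISA3, which retains Frizzled receptors inside the cell, had 2.22, 2.10 and 2.18 in VC and 1.16, -0.66 and 0.33 in KO (log2 fold change -1.89, limma adjusted p = 0.0328). Both were lower in every KO library with a value, as was the membrane antagonist APCDD1 (log2 fold change -2.29, limma adjusted p = 0.00963). After adding 1 to each linear signal the log2 fold changes of FRZB and APCDD1 were -0.11 and -0.06. Of 5 agonists outside the WNT family, 1 was called lower and 1 higher (20% each, beside 19.8% and 13.1% of all genes). RSPO4 had 0.66, 0.47 and 0.66 in VC and 1.07, 1.31 and 0.92 in KO. It was called higher (log2 fold change 0.50, limma adjusted p = 0.0374). RSPO3 had -5.38, -5.13 and -5.12 in VC and -8.29, -8.25 and -7.26 in KO (log2 fold change -2.72, limma adjusted p = 0.00894). LGR6, an R-spondin receptor, had -7.44, -6.77 and -8.47 in VC and -5.04, -3.38 and -3.63 in KO (log2 fold change 3.54, limma adjusted p = 0.0165). For the low signals of RSPO3 and LGR6 the values after adding 1 to each linear signal were -0.03 and 0.09. Neither was then called (limma adjusted p = 0.2 and 0.0646).

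In the planar polarity branch 4 of 10 genes were called lower and 1 higher (40% and 10%, beside the same 19.8% and 13.1%). Lower means were found for 7 of the 10, beside 11540 of all 19306 tested genes. PRICKLE2 rose from -1.91, -2.42 and -1.91 in VC to -0.71, -0.23 and -0.45 in KO (log2 fold change 1.61, limma adjusted p = 0.00975). CELSR2, an atypical cadherin, had 1.09, 0.85 and 1.06 in VC and 0.03, -1.05 and -0.54 in KO, and DAAM1, a formin that binds Dishevelled, had 2.10, 2.19 and 2.02 in VC and 1.36, 1.16 and 1.06 in KO. Both were lower in every KO library, with log2 fold changes of -1.51 (limma adjusted p = 0.0189) and -0.91 (limma adjusted p = 0.00963), and DAAM1 lies on chromosome 14, whose median was -0.35. AMER1, a partner of AXIN and APC, and PYGO1, a beta-catenin co-activator, had log2 fold changes of -0.97 and -1.05 (limma adjusted p = 0.0148 and 0.0254). Their lists were mixed in direction. Of 15 further destruction complex genes, 2 were called lower and 3 higher (13.3% and 20%, beside 19.8% and 13.1%). Of 14 nuclear co-factors, 5 were called lower and 2 higher (35.7% and 14.3%). Among the 9 tested targets 7 had lower means in KO, but none of these was called. The median log2 fold change was -0.44, beside -0.13 for all tested genes. In 3 of the 9 all KO values lay under all VC values, beside 36.7% of all genes with 6 values. The 2 called genes were higher, 22.2% beside 13.1% of all tested genes. TNFRSF19 had 2.34, 2.45 and 2.37 in VC and 3.28, 3.47 and 3.19 in KO (log2 fold change 0.93, limma adjusted p = 0.00847), and FGF20 had -5.64, -5.60 and -6.73 in VC and -3.0, -4.73 and -4.38 in KO (log2 fold change 1.95, limma adjusted p = 0.0486). FGF20 was not called in any of the 6 fits that left out a library (limma adjusted p 0.0509 to 0.12) nor after adding 1 to each linear signal (0.07, limma adjusted p = 0.172).

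RSPO4 was not followed in the fits that left out a library. Of the other 14 called genes named in the last 3 paragraphs, 7 lost the call without VC replicate 1 (AMER1, CELSR2, FGF20, LGR6, PORCN, PYGO1 and SHISA3, limma adjusted p 0.0538 to 0.0962). The same 7 lost it without VC replicate 3 (0.0537 to 0.12). CELSR2, FGF20, PORCN, PYGO1 and SHISA3 lost it without VC replicate 2 (0.0529 to 0.0907), these 5 and LGR6 without KO replicate 3 (0.0571 to 0.0941), and FGF20 and PORCN without KO replicate 2 (0.0566 and 0.0741). With KO replicate 2 or 3 left out, too few values remained for FRZB. WLS, RSPO3, APCDD1, PRICKLE2, DAAM1 and TNFRSF19 were called in all 6 fits.

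**Figure D5:**
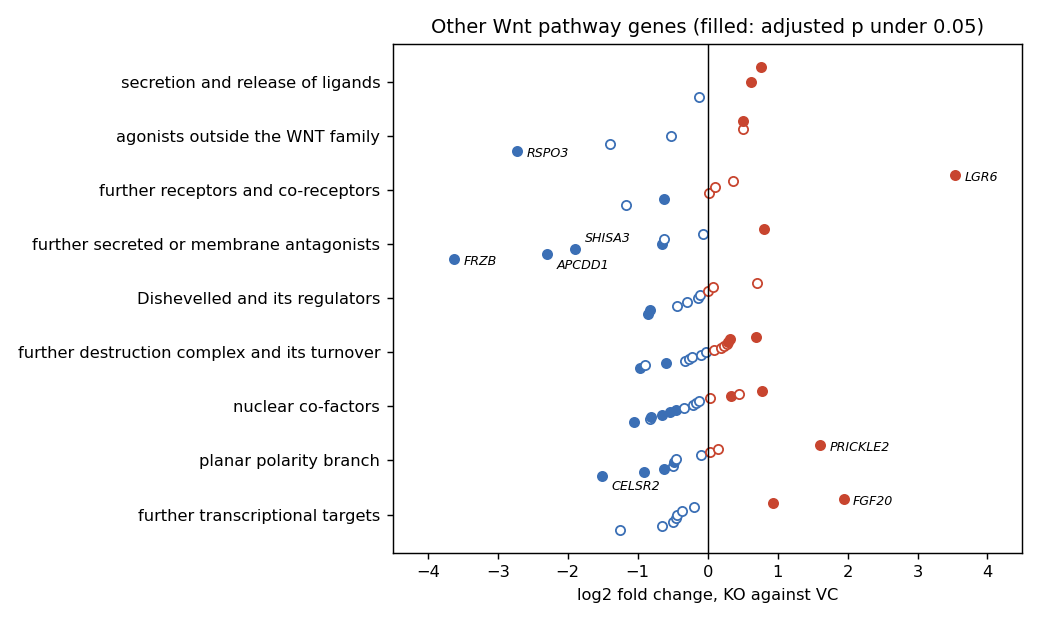
Log2 fold change of KO against VC (x axis) of the 78 tested further pathway genes in their functional groups (y axis), red where positive, blue where negative and filled at an adjusted p under 0.05. FRZB at -3.62 and LGR6 at 3.54 are the extremes, and the called genes of ligand secretion, WLS and PORCN, both lie above 0. NOTUM, the other gene of that group, lies at -0.13 and is not called.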

How the data were processed

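RNA of 3 VC and 3 CNTNAP4 KO libraries of 143B cells was sequenced by the authors. The authors deposited quantile-normalized log2 signals for 54308 genes. The linear unit, the annotation and the counting rule behind these values are not given in the sources used here. The submitters' processing notes name CASAVA, STAR, Partek and GRCh38.p13, and the methods name Partek and CLC Genomics software. Read depth is unknown, so no counting interval could be given. Quantile normalization fixes each library's overall distribution, so a shift shared by most genes would not be seen.

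Libraries were grouped by title. Signals were used as deposited in R 4.3.3 with limma 3.58.1. Empty cells had not been foreseen in the plan, and a minimum of 2 values per group was therefore required of a tested gene. For each gene limma's moderated test (no trend) compared KO with VC, its two-sided p-values were adjusted over 19306 genes after Benjamini and Hochberg, and "called" means an adjusted p under 0.05. The fit was tested on simulated data. Log2 fold changes are KO against VC. The genes, lists and tests were chosen with earlier results of these data known. Genes given by library are those called, those with at least a 2-fold difference and AXIN2, LEF1, TCF7, LGR5, RNF43, ZNRF3, CTNNB1 and WNT11, with DKK1, DKK2, ROR2, LRP5, LRP6 and GSK3A added after their values were seen. Of the further pathway genes, the 12 called genes with the largest change are named, with WLS, PORCN and the DVL genes. RSPO4 and NOTUM were added after their values were seen. Chromosomes, neighbours (10 genes on each side, from the upper 50% of mean signal) and antisense overlaps came from GENCODE release 29, matched by symbol. The alternatives were other filters on low or missing values, median centring, 1 added to the linear signal, other variance moderation, library weights, a replicate block, unadjusted p-values and each library left out.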

Additional observations from a re-analysis of the deposited data

How the results depend on the processing

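The 16 called WNT pathway genes (3 higher and 13 lower) became 10 (7 lower) in the upper 50% of mean signal, 9 (7 lower) without moderation, 34 (30 lower) with library weights, which gave KO replicate 3 a weight of 86.5 and are not reliable, and 9 (6 lower) with a replicate block. Leaving out single libraries gave 5 to 22 genes, 3 to 19 of them lower and 2 to 3 higher. The median log2 fold change over the tested WNT pathway genes moved from -0.40 to -0.13 both in the upper 50% and after adding 1 to each linear signal, and lay between -0.47 and -0.25 with a library left out. Further pathway genes called numbered 32, and 19 without moderation, 65 with weights, 10 with the replicate block and 11 to 43 with a library left out. All genes called numbered 6354, and 13936 with weights, 1533 with the replicate block and 1223 (without VC replicate 3) to 8669 (without KO replicate 1) with a library left out. Of the 16 called WNT pathway genes, 8 were also called with the block, which added WNT4. Samples sharing a replicate number did not deviate together (correlations of 0.0226, 0.00509 and -0.00736 over 17698 genes). Whether the libraries were prepared in pairs is not given in the sources used here. The correlations cannot decide it, as pairs without a shared deviation would look the same.

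The sign of LEF1 became positive with median centring (0.06) and without VC replicate 3 (0.0014) or KO replicate 2 (0.02), in a range of -0.08 to 0.02 over the libraries left out, that of DVL1 became negative with weights (-0.0017) and without VC replicate 2 (-0.07), KO replicate 2 (-0.02) or KO replicate 3 (-0.0018), in a range up to 0.07, and that of DVL2 with weights (-0.0059). For these changes of count and sign the cause was not tested. Over the 43 genes followed singly, all other alternatives kept the sign, 100 results lost the call and 12 gained it. These genes include every called WNT pathway gene. They leave out, among others, DKK1, DKK2, ROR2, FZD5, WNT10B and GSK3A, which gained calls in some alternatives. The counts of lost and gained calls therefore do not describe all tested WNT pathway genes. Values under about -4 fall to almost no difference once 1 is added to each linear signal. The unknown depth limits what can be said of them.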
